A study of Homo sapiens with 17 samples.

Results

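Human embryonic stem cells of the H9 line, carrying a GFP reporter for SHOX2 and an mCherry reporter, were differentiated and sorted, and the transcriptome of GFP+mCherry+ cells was compared with that of GFP-mCherry+ cells at day 40. The labels put 5 of the 17 libraries of the study in these groups, libraries 10 and 13 for GFP+mCherry+ cells and libraries 11, 14 and 17 for GFP-mCherry+ cells. The comparison covered 13873 of the 20218 genes in the table, those with at least 1 FPKM (fragments per length of transcript and per mapped fragments of the library) in at least 2 of the 5 libraries. Values below are per library in the order of the library numbers. Libraries 12, 15 and 18 of GFP-mCherry- cells of day 40, and the GFP+mCherry+ (1, 4 and 7) and GFP-mCherry+ (2, 5 and 8) libraries of day 25, were set beside them.

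All groups shared the H9 background, a line labelled SHOX2 and the label of sinoatrial-node-like cells, so the labels separate them by reporter and day alone. The growth protocol starts with CHIR99021, BMP4 and Activin A and then describes a cardiomyocyte branch with XAV939 and a sinoatrial branch with cucurbitacin, retinoic acid, SU5402, XAV939, a tyrphostin and the histone deacetylase inhibitor chidamide. It does not say which branch gave each sorted population, whether the line was 1 clone, or which gene drove mCherry, for which MYH6 was taken. The labels do not state that replicate libraries were made from different cultures. The p-values therefore measure only library-to-library spread, which may be technical. With bulk libraries, fewer cells of a type and less RNA per cell cannot be told apart.

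The sinoatrial node is a small region of slowly conducting myocytes that paces the heart. Its development is known from mouse and fish to rely on SHOX2, ISL1 and TBX3, which act with BMP4 to hold back NKX2-5 and the chamber programme, and on HCN channels and calcium cycling for spontaneous depolarisation. Nodal myocytes are poor in contractile protein and mitochondria compared with working myocardium, and in the heart they lie in dense stroma close to the epicardium and to autonomic nerves.

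The sorted cells carried the label's myocyte identity in part. Summed over 7 cardiomyocyte markers, GFP+mCherry+ libraries held 6349 and 4505 FPKM, against 17256, 16123 and 22024 FPKM in GFP-mCherry+ libraries and 1982, 362 and 464 FPKM in GFP-mCherry- libraries. Of 5 pacemaker markers, SHOX2, on whose reporter the cells were sorted, and ISL1 were called higher than in GFP-mCherry+ cells, and TBX3, TBX18 and HCN4 were not (adjusted p 0.107, 0.365 and 0.929). TBX3 was at 38.2 and 34.0 FPKM in GFP+mCherry+ cells, against 17.5, 30.9 and 22.5 FPKM in GFP-mCherry+ cells, and TBX18 at 21.5 and 13.8 FPKM against 12.8, 5.79 and 10.1 FPKM. Markers of other cell types were also present. The 6 fibroblast markers summed to 11289 and 12281 FPKM in GFP+mCherry+ cells, against 1941, 7230 and 2232 FPKM in GFP-mCherry+ cells and 12910, 22861 and 11060 FPKM in GFP-mCherry- cells. NANOG, a pluripotency factor, was listed at 0 in both GFP+mCherry+ libraries.

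A pair of libraries stood apart. Libraries 13 and 14 had the fewest genes above 0, at 16489 and 16597, where each other library of the 17 had at least 17104. Library 13 lay below library 10 in 86.7% of the genes called lower in GFP+mCherry+ cells, and library 14 was the highest of the GFP-mCherry+ libraries in 62.3% of the genes called higher. Over all tested genes the libraries correlated at r = 0.943 within the GFP+mCherry+ group, at 0.939 to 0.957 within the GFP-mCherry+ group and at 0.824 to 0.921 between the groups. Library sums ran from 570765 to 647955 FPKM, and read depth was not in the table. Counts of calls are therefore given with and without library 13 where they depend on it. A group left with 1 library is then assumed to vary like the other groups.

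Of the 13873 genes, 3757 (27.1%) were called at an adjusted p under 0.05, with 2362 (17.0%) higher in GFP+mCherry+ cells and 1395 (10.1%) lower. At least 2-fold differences on the log2(FPKM + 1) scale were found for 1613 of the higher and 697 of the lower genes, and this scale understates the change of genes with low values. Both GFP+mCherry+ libraries lay above all 3 GFP-mCherry+ libraries for 26.6% of genes, and below all 3 for 19.6%. The median difference over all genes was 0.07 on the log2 scale as deposited, -0.02 after median-of-ratios scaling and -0.06 after quantile normalization. The split of the calls moved with the scaling, from 62.9% higher as deposited to 52.9% (2059 higher and 1836 lower) and 49.2% (1891 higher and 1950 lower). Without library 13 the calls were 974 higher and 262 lower, and 1197 of the 3757 calls remained, while all 3757 genes kept their sign. Without library 14 there were 2632 higher and 1582 lower. Gene lists are described below by their counts of called members, which are to be read against 17.0% and 10.1%, and by their median difference, to be read against 0.07. List counts from a fit with a library left out are to be read against the calls over all genes in that same fit. Without library 13 those were far fewer, so 17.0% and 10.1% are not the reference there.

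**Figure D1:**
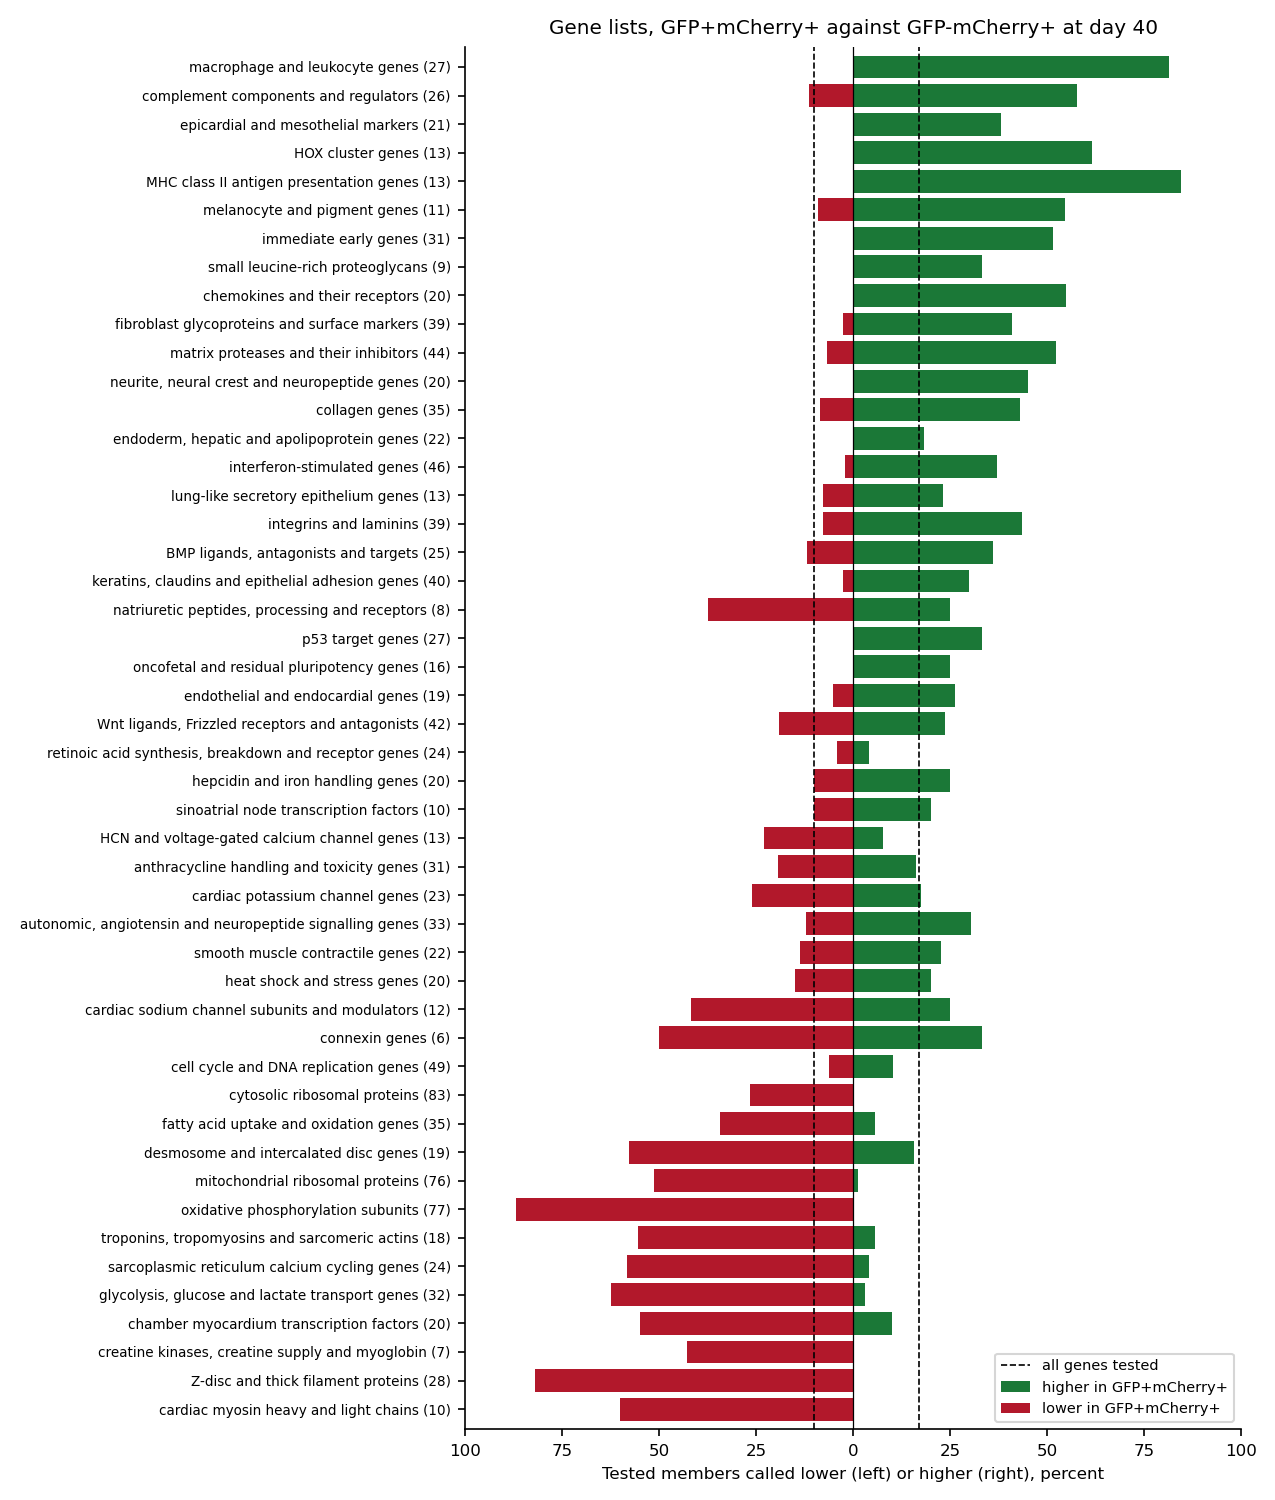
Share of the tested members of 48 gene lists called lower (red bars to the left) or higher (green bars to the right) in GFP+mCherry+ against GFP-mCherry+ cells at day 40, with the number of tested members in brackets and dashed lines at the shares over all genes (10.1% and 17.0%). Macrophage and MHC class II lists had over 80% of members higher, and oxidative phosphorylation and Z-disc lists over 80% lower.

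SHOX2, the factor reported by GFP (ENSG00000168779, chromosome 3, 157814948 to 157824292 on hg19, coordinates from the table with each start moved up by a base), stood at 58.5 and 90.2 FPKM in GFP+mCherry+ libraries, against 1.39, 2.41 and 1.81 FPKM in GFP-mCherry+ libraries. Every sorted GFP+ library was thus far above every GFP- library, and GFP-mCherry- cells held 1.32, 0.253 and 0.447 FPKM. MYH6, the atrial myosin heavy chain gene taken for the mCherry reporter, was at 384 and 203 FPKM in GFP+mCherry+ cells, against 628, 520 and 0 FPKM in GFP-mCherry+ cells. It was listed at exactly 0 in library 17, whose other myocyte genes were among the highest, and no direction is read from it.

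Of the 10 tested transcription factors of the node (median difference 0.06), ISL1 was the single higher member apart from SHOX2, on whose reporter the cells were sorted, and MEIS2 was lower. ISL1, a LIM homeodomain factor of the venous pole, was at 11.0 and 8.19 FPKM in GFP+mCherry+ cells, against 2.29, 3.62 and 2.90 FPKM in GFP-mCherry+ cells, without overlap. MEIS2, a TALE homeodomain factor, was at 86.1 and 85.1 FPKM, against 223, 168 and 157 FPKM in GFP-mCherry+ cells (-1.07 ± 0.22, adjusted p 0.00306). TBX5, a T-box factor of atria and node, was near one level, at 50.7 and 46.7 FPKM against 60.3, 49.8 and 60.2 FPKM. The calls of ISL1 and MEIS2 were kept without any 1 of the 5 libraries.

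Chamber transcription factors were mostly lower, 11 of 20 against 2 higher, with a median of -1.18. The ventricular factor IRX4 was at 2.11 and 0.105 FPKM in GFP+mCherry+ cells, against 30.6, 9.79 and 15.4 FPKM in GFP-mCherry+ cells (-3.26 ± 0.56, adjusted p 0.000935). PRDM16, a regulator of compact myocardium in mouse, was at 1.54 and 0.884 FPKM against 15.8, 4.60 and 5.64 FPKM (-1.97 ± 0.38). IRX4 and PRDM16 passed the filter of 1 FPKM only through the GFP-mCherry+ libraries, and no support is drawn from their calls. The related factor IRX5 (-1.82 ± 0.28) was lower as well, and these 3 calls held without any 1 library. HEY2 (-2.53 ± 0.66), TBX20 (-1.96 ± 0.59), HOPX (-1.48 ± 0.39) and HAND2 (-1.18 ± 0.28), regulators of chamber growth and differentiation, were also called lower. HEY1, a Notch target of atrial myocardium, was among the higher members, at 38.2 and 33.8 FPKM in GFP+mCherry+ cells, against 15.9, 14.6 and 12.7 FPKM in GFP-mCherry+ cells (1.27 ± 0.35). Leaving out library 13 gave 5 lower and none higher, with HEY2 (adjusted p 0.221), TBX20 (0.234), HOPX (0.0713), HAND2 (0.0881) and HEY1 (0.0792) not called. HEY1 (0.0677) and HOPX (0.0501) were also not called without library 10, nor TBX20 (0.0865) without library 11.

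**Figure D2:**
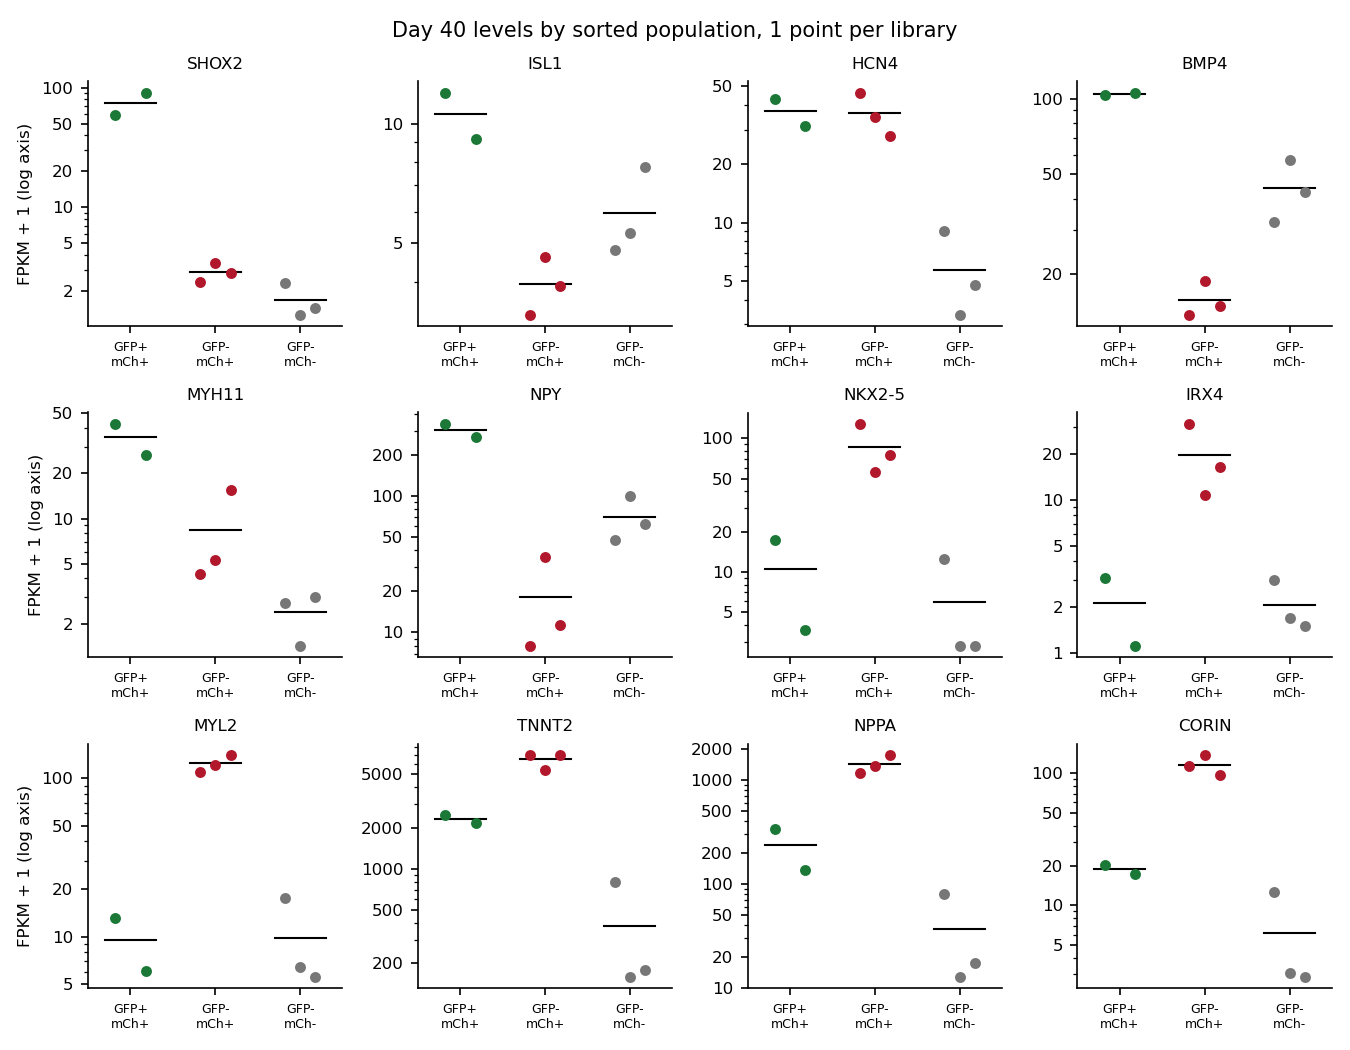
Levels of 12 genes as FPKM + 1 on a log axis at day 40, with 1 point for each library of GFP+mCherry+ (green), GFP-mCherry+ (red) and GFP-mCherry- (grey) cells (mCh stands for mCherry) and black lines for the mean of each population. SHOX2, BMP4, MYH11 and NPY were highest in GFP+mCherry+ cells, HCN4 was shared by both mCherry+ populations, and for NKX2-5, IRX4 and MYL2 the GFP+mCherry+ points overlap those of GFP-mCherry- cells.

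Sodium channel genes and their modulators moved in both directions. Among 12 tested sodium channel genes and modulators 5 were lower (41.7%, against 10.1% of all tested genes) and 3 higher (25.0%, against 17.0%). FGF13, an intracellular sodium channel modulator, was at 24.4 and 11.0 FPKM in GFP+mCherry+ cells, against 98.4, 77.2 and 73.3 FPKM in GFP-mCherry+ cells (-2.25 ± 0.38). The channel-trafficking gene GPD1L fell too (-1.37 ± 0.23). SCN8A, a neuronal sodium channel, was at 1.21 and 13.2 FPKM against 0.725, 0.982 and 1.34 FPKM, so its call (1.48 ± 0.48) came from library 13 and was lost without it (0.14, adjusted p 0.797). The list had 4 lower and none higher without library 13. SCN8A was also lost without library 11 (adjusted p 0.0829) or 14 (0.0516). It passed the filter of 1 FPKM only through the GFP+mCherry+ libraries, and no support is drawn from its call.

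Pacemaker channels did not separate the populations as a list, with 1 of 13 HCN and calcium channel genes higher, 3 lower and a median of 0.05. HCN4, the main pacemaker channel, was at 42.2 and 30.5 FPKM in GFP+mCherry+ cells, against 45.5, 34.0 and 26.7 FPKM in GFP-mCherry+ cells, with overlapping values (0.05 ± 0.37, adjusted p 0.929). Both mCherry+ populations held it above GFP-mCherry- cells (8.03, 2.34 and 3.76 FPKM). CACNA1C, the L-type calcium channel of the plateau current, was at 25.3 and 11.8 FPKM, against 87.7, 50.7 and 63.3 FPKM in GFP-mCherry+ cells (-1.86 ± 0.34, adjusted p 0.00139). Its auxiliary subunit gene CACNB2 (-1.64 ± 0.38) was also lower. When library 13 was left out CACNA1C was the single lower member and CACNB2 was not called (adjusted p 0.0980). The higher member was called neither then nor without library 10, 11 or 14.

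Of 23 potassium channel genes 4 were higher (17.4%, against 17.0% of all tested genes) and 6 lower (26.1%, against 10.1%). The share higher was thus near that of all genes. KCNJ5, a subunit of the acetylcholine-gated channel of atria and node, was at 6.43 and 3.89 FPKM in GFP+mCherry+ cells, against 27.7, 20.0 and 15.3 FPKM in GFP-mCherry+ cells (-1.83 ± 0.36). KCNMA1, a calcium-activated channel that in mouse tunes sinus rate, was at 14.5 and 16.2 FPKM against 1.41, 5.46 and 4.78 FPKM (1.87 ± 0.45). KCNE4, an accessory subunit, was at 51.1 and 48.5 FPKM against 9.97, 22.4 and 5.83 FPKM (2.08 ± 0.56). KCNMA1 was not called without library 13 (adjusted p 0.0714), nor KCNE4 without library 13 (0.0868), 10 (0.0506) or 17 (0.0514). The list had 1 member in each direction without library 13, and 3 higher and 1 lower without library 11.

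Connexin genes, which set the coupling between myocytes, differed by subtype. GJD2 was at 1.87 and 3.30 FPKM in GFP+mCherry+ cells, against 0.445, 1.14 and 0.816 FPKM in GFP-mCherry+ cells (0.98 ± 0.25, adjusted p 0.0093), and GFP-mCherry- cells held 0.138, 0.221 and 0.249 FPKM. GJD2 passed the filter of 1 FPKM only through the GFP+mCherry+ libraries, so no support is drawn from its call. GJA1, the connexin of working myocardium and stroma, was higher too, at 158 and 126 FPKM against 54.8, 73.7 and 39.4 FPKM, and GFP-mCherry- cells held 131, 192 and 127 FPKM. GJA5, the atrial and fast-conducting connexin, was at 12.4 and 13.5 FPKM against 47.9, 30.3 and 34.1 FPKM (-1.44 ± 0.37). GJA3 (-1.61 ± 0.37) and GJC1 (-0.89 ± 0.26) were the other lower members. GJA1 was the only one of the 5 calls that remained without library 13, with adjusted p of 0.161 for GJD2, 0.0687 for GJA5, 0.0941 for GJA3 and 0.139 for GJC1, and GJC1 was not called without library 14 either (0.0582).

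Contractile genes were lower. Of 28 Z-disc and thick filament genes 23 were lower and none higher (median -1.86), as were 6 of 10 myosin genes (median -2.10), and of 18 troponin, tropomyosin and actin genes 10 were lower and 1 higher (median -1.01). HSPB7, a small heat shock protein that binds filamin in muscle, was at 258 and 92.6 FPKM in GFP+mCherry+ cells, against 1700, 735 and 1066 FPKM in GFP-mCherry+ cells (-2.82 ± 0.56, adjusted p 0.00224). XIRP1, an actin-bundling protein of the intercalated disc, was at 13.3 and 5.23 FPKM against 79.2, 39.8 and 59.1 FPKM (-2.62 ± 0.52). MYBPC3, cardiac myosin-binding protein C, was at 85.5 and 39.2 FPKM against 449, 152 and 371 FPKM (-2.32 ± 0.57). None of these 3 genes overlapped between the groups, and GFP-mCherry- cells lay at or below GFP+mCherry+ cells for MYBPC3, at 33.1, 7.07 and 11.5 FPKM. ACTC1, the cardiac actin, was at 2752 and 1842 FPKM against 5967, 8392 and 12738 FPKM (-1.93 ± 0.61). TNNT1, the slow skeletal troponin T, was the higher member, at 59.9 and 66.9 FPKM against 20.9, 23.5 and 45.5 FPKM, and GFP-mCherry- cells held 153, 155 and 258 FPKM.

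These lists leaned on library 13. Without it 1 of the 23 Z-disc calls, 1 of the 6 myosin calls and 2 of the 10 lower thin filament calls were made, with list medians of -1.55, -1.69 and -0.90. Without library 10 the counts were 20, 6 and 7. The adjusted p without library 13 was 0.0670 for HSPB7, 0.0625 for XIRP1, 0.138 for MYBPC3 and 0.220 for ACTC1. ACTC1 was not called without library 17 (0.0911) or after quantile normalization (0.0813) either, and TNNT1 was not called without any 1 of libraries 10, 11, 13 or 14 (0.0995, 0.141, 0.236 and 0.0992) or after median-of-ratios scaling (0.0632).

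The promoters of 4 of these lower genes are shown as examples of motif matches in the list, and were picked for having them, after their values were seen. The sequences are from RefSeq on GRCh38.p14, each 300 bases around an annotated start, on the minus strand of the chromosome and printed 5′ to 3′ along the gene. Capitals mark matches to 4 motifs, searched on both strands. These were the TATA box, spelled TATAAA, the site of GATA factors, spelled AGATAA, and by name the CArG box of serum response factor and the MEF2 box. The MEF2 box was searched in a strict form that starts with CTA and ends with TAG. A looser form that ends with TAA is present in the XIRP1 window, and looser forms were neither marked nor counted. ACTC1 has 3 such windows and the one with the most kinds of motif is given. They span chr15:34795500-34795799 for ACTC1, chr11:47352653-47352952 for MYBPC3, chr1:16017994-16018293 for HSPB7 and chr3:39192546-39192845 for XIRP1.
ACTC1: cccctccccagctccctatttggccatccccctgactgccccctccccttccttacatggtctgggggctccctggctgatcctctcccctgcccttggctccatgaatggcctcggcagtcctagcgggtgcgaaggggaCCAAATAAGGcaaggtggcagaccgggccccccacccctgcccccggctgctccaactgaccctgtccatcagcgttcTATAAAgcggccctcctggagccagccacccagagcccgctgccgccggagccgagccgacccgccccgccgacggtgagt
MYBPC3: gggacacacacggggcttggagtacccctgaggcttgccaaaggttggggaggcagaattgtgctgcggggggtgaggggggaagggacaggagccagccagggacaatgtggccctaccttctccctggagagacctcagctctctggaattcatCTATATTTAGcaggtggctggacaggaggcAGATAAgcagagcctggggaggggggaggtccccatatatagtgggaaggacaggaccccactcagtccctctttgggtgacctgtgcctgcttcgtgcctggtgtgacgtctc
HSPB7: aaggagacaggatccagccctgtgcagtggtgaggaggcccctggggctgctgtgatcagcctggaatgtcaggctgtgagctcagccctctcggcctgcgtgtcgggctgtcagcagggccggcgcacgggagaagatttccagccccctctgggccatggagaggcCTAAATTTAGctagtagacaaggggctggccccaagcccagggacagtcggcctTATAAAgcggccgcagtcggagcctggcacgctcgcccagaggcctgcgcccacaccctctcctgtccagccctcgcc
XIRP1: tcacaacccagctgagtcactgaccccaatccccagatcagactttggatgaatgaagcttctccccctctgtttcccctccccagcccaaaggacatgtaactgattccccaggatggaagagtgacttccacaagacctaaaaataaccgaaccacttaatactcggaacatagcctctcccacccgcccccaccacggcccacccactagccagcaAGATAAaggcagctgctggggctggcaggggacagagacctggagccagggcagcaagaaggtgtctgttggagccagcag
The ACTC1 window held a CArG box at -109 and a TATA box at -31 relative to the start. In the MYBPC3 window a MEF2 box began at -94 and a GATA site at -64, in the HSPB7 window a MEF2 box at -82 and a TATA box at -28, and in the XIRP1 window a GATA site at -31. Of 35116 promoter windows of the same length 11.5% held the TATA box, 10.3% the GATA site, 1.29% the CArG box and 0.572% the MEF2 box. In the myosin, thin filament and Z-disc lists, 27 genes called lower had a window. Of these, 22.2% (6 genes) held a MEF2 box and 14.8% (4 genes) a CArG box in at least 1 window. The TATA box was held by 25.9% and the GATA site by 37.0%. Over the 10405 tested genes with a window these shares were 0.605%, 1.75%, 9.00% and 8.61%. Over all 1063 called lower they were 1.88%, 2.35%, 10.8% and 9.41%. Members of these lists that were not called lower were not counted, so a link to the lower levels was not tested. A match is a run of letters and not a measured binding site.

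Calcium cycling genes of the sarcoplasmic reticulum were lower in 14 of 24 and higher in 1 (median -1.06). TRDN, which anchors the release channel, was at 18.2 and 14.3 FPKM in GFP+mCherry+ cells, against 69.9, 78.5 and 68.4 FPKM in GFP-mCherry+ cells (-2.09 ± 0.41, adjusted p 0.00212). CASQ1, a calcium buffer, was lower (-2.42 ± 0.43), and both calls held without any 1 library. The related calcium buffer gene CASQ2 was not called (-0.35, adjusted p 0.375). The release channel gene RYR2 was at 51.5 and 28.6 FPKM against 83.6, 137 and 78.7 FPKM (-1.31 ± 0.41). ITPR1, the inositol trisphosphate receptor that releases calcium in nodal and smooth muscle cells, was the higher member, at 20.3 and 32.9 FPKM against 10.5, 11.7 and 7.55 FPKM (1.32 ± 0.32), and GFP-mCherry- cells held 10.1, 11.6 and 8.19 FPKM. Without library 13 there were 3 lower and none higher, with RYR2 at adjusted p 0.311 and ITPR1 at 0.134, and RYR2 was not called without library 14 (0.0795).

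Desmosome and intercalated disc genes were lower in 11 of 19 and higher in 3. DSP, the desmosomal plakin, was among the higher ones at 118 and 130 FPKM in GFP+mCherry+ cells, against 57.1, 72.7 and 49.6 FPKM in GFP-mCherry+ cells (1.06, adjusted p 0.00538). SORBS2 (-1.80) and NEXN (-1.77), actin-binding adaptors, were among the lower ones and kept their calls without any 1 library. Of 8 natriuretic peptide genes 3 were lower and 2 higher. CORIN, the protease that activates the atrial peptide, was at 19.3 and 16.3 FPKM against 113, 137 and 95.1 FPKM (-2.62 ± 0.46, adjusted p 0.00106), and its call held without any 1 library. MME, the membrane protease that breaks the peptide down, was at 60.3 and 143 FPKM against 14.2, 77.4 and 17.6 FPKM (1.74 ± 0.53), values that overlap. The desmosome list had 4 lower and none higher without library 13, when DSP had an adjusted p of 0.0676, and CORIN was the single call among the peptide genes. The desmosome list had 7 lower without library 11 or 17. MME had an adjusted p of 0.309, 0.0915 and 0.0825 without libraries 13, 11 and 17, and no peptide gene was then called higher.

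Energy metabolism followed the contractile genes. Of 77 oxidative phosphorylation subunits 67 were lower and none higher, with a median of -0.98, and their summed level was 14232 and 10522 FPKM in GFP+mCherry+ cells, against 25521, 21920 and 29428 FPKM in GFP-mCherry+ cells. GFP-mCherry- cells, at 13183, 9818 and 11264 FPKM, overlapped the GFP+mCherry+ sums. COX5A, a cytochrome oxidase subunit, was at 259 and 140 FPKM against 506, 571 and 710 FPKM (-1.62 ± 0.29). Glycolysis and glucose transport genes were lower in 20 of 32 and higher in 1, led by ENO3, the muscle enolase, at 78.3 and 44.6 FPKM against 499, 224 and 505 FPKM (-2.68 ± 0.42). PDK4, a kinase that closes pyruvate entry to the mitochondrion, was the higher one at 11.4 and 5.89 FPKM against 1.29, 1.56 and 0.540 FPKM (2.15 ± 0.34). Fatty acid uptake and oxidation genes were lower in 12 of 35, with SLC27A6, the heart fatty acid transporter, at 15.1 and 11.1 FPKM against 60.1, 77.3 and 55.7 FPKM (-2.21 ± 0.26, adjusted p 0.000102). These 4 named calls held without any 1 library, but the list counts did not. Without library 13 they were 8 lower of the subunits, 2 lower and none higher of glycolysis, and 1 in each direction for fatty acids. Glycolysis had 13 lower without library 11 or 17, and fatty acid genes had 1 higher without library 17.

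Ribosomal genes had smaller median differences than oxidative phosphorylation and glycolysis genes. Of 83 cytosolic ribosomal protein genes 22 were lower and none higher (median -0.53), and of 76 mitochondrial ones 39 were lower and 1 higher (median -0.67). The cytosolic list summed to 53717 and 44750 FPKM in GFP+mCherry+ cells, against 89682, 64075 and 69713 FPKM in GFP-mCherry+ cells and 83535, 68878 and 67139 FPKM in GFP-mCherry- cells, so GFP+mCherry+ cells were below both. The cytosolic count was 0 without library 13, 7 without library 11, 13 without library 17, 33 without library 14, 8 after quantile normalization and 0 with only the compared groups in the fit. The mitochondrial count was 6 lower and none higher without library 13 and 23 lower without library 17.

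**Figure D3:**
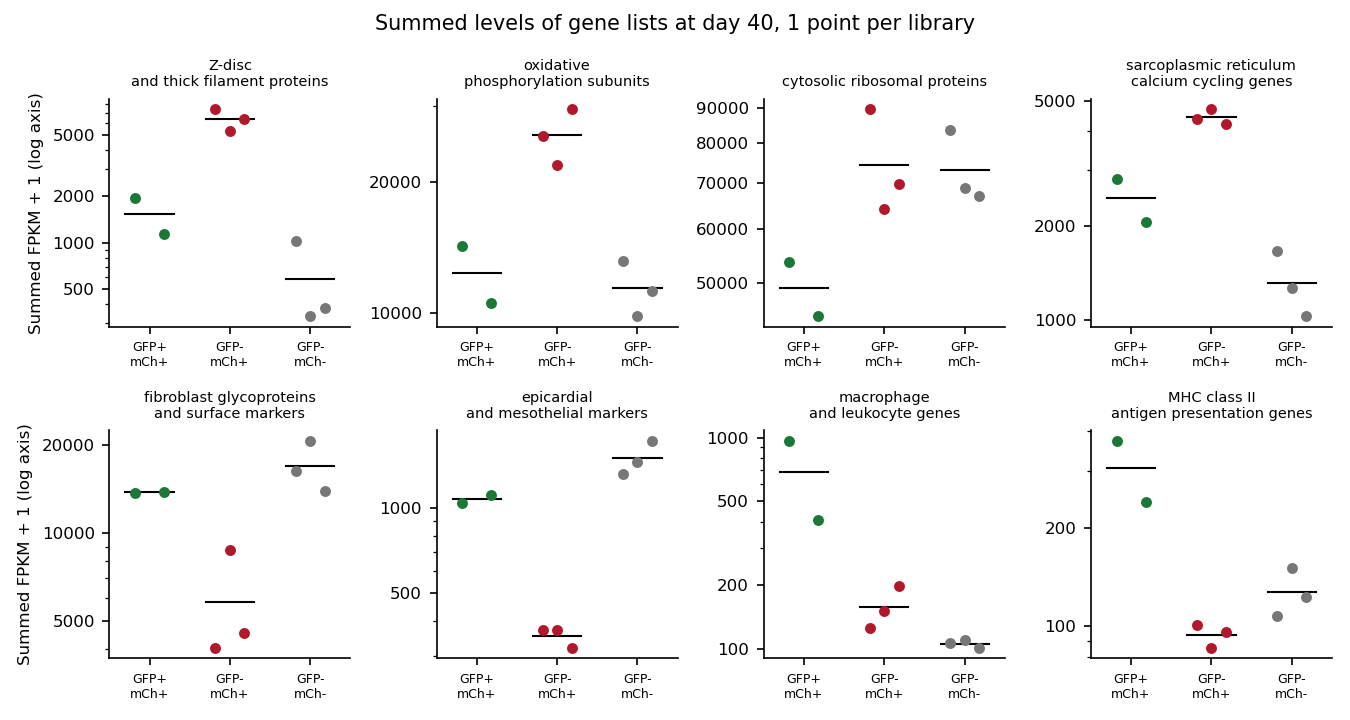
FPKM summed over the tested members of 8 gene lists on a log axis at day 40, with 1 point for each library of GFP+mCherry+ (green), GFP-mCherry+ (red) and GFP-mCherry- (grey) cells (mCh stands for mCherry) and black lines for the mean of each population. GFP+mCherry+ cells lay between the other populations for Z-disc genes (1950 and 1146 FPKM), below both for ribosomal proteins and above both for macrophage genes (965 and 408 FPKM).

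BMP genes were higher in 9 of 25 and lower in 3, with a median of 0.58. BMP4, the ligand that supports nodal identity in mouse (ENSG00000125378, chromosome 14, 54416454 to 54425479 on hg19), was at 103 and 105 FPKM in GFP+mCherry+ cells, against 12.7, 17.8 and 13.9 FPKM in GFP-mCherry+ cells. It lay above GFP-mCherry- cells too (31.2, 56.0 and 41.6 FPKM). The antagonist genes BMPER, at 41.3 and 18.5 FPKM against 3.14, 8.81 and 3.63 FPKM (2.33 ± 0.55), and NOG (1.23 ± 0.32) were higher as well. The direct targets ID2, at 330 and 328 FPKM against 199, 147 and 84.4 FPKM (1.28 ± 0.29), ID1 (1.27 ± 0.30), ID4 (1.54 ± 0.44) and MSX1 (1.01 ± 0.31) were higher, while the target MSX2 was lower (-0.93 ± 0.26). The ligands of the chamber, BMP5 (59.4 and 36.0 FPKM against 145, 141 and 126 FPKM) and BMP7 (20.6 and 8.91 FPKM against 71.6, 49.5 and 40.7 FPKM), were lower, by -1.54 ± 0.41 and -1.87 ± 0.38. BMP4 and ID2 kept their calls without any 1 library. None of the lower members kept its call without library 13. The member called lower there was BMPR1B, which differed by -0.80 without library 13 and by -0.28 with it. The list had 3 higher and 1 lower without library 13, when NOG (adjusted p 0.123), ID1 (0.0586), ID4 (0.166), MSX1 (0.220), MSX2 (0.148), BMP5 (0.166) and BMP7 (0.0774) were not called. BMPER was not called without library 10 (0.0674), ID4 without library 11 (0.0627) or 17 (0.0574), or MSX1 without library 11 (0.0714) or after quantile normalization (0.0587).

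Genes of autonomic, angiotensin and neuropeptide signalling were higher in 10 of 33 and lower in 4, although their median was -0.13. ADRB1, the main beta-adrenergic receptor of adult myocardium (ENSG00000043591, chromosome 10, 115803806 to 115806667 on hg19), was at 2.42 and 2.53 FPKM in GFP+mCherry+ cells, against 0.236, 0.106 and 0.169 FPKM in GFP-mCherry+ cells (1.57 ± 0.19, adjusted p 0.000124). It passed the filter of 1 FPKM only through the GFP+mCherry+ libraries, so a higher level there was needed for it to be tested. No support is drawn from its call. ADCY5, the adenylyl cyclase of myocardium, was at 20.5 and 7.87 FPKM against 86.1, 60.5 and 58.7 FPKM (-2.31 ± 0.34), while PDE3A, a cyclic AMP phosphodiesterase, was higher (1.56 ± 0.29). GNAO1, a G protein subunit of inhibitory receptors, was at 16.6 and 16.2 FPKM against 4.52, 7.48 and 7.01 FPKM (1.27 ± 0.34), and RGS4, which shortens inhibitory signalling in mouse node, was at 96.8 and 133 FPKM against 5.92, 32.5 and 8.65 FPKM (3.13 ± 0.71). ADCY5 and PDE3A kept their calls without any 1 library. GNAO1 (adjusted p 0.0856) and RGS4 (0.0663) were not called without library 13, when the list had 6 higher and 3 lower.

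Of 22 smooth muscle contractile genes 5 were higher (22.7%, against 17.0% of all tested genes) and 3 lower (13.6%, against 10.1%). Both shares were near those of all genes. MYLK, the smooth muscle myosin kinase (ENSG00000065534, chromosome 3, 123328896 to 123603178 on hg19), was at 129 and 110 FPKM in GFP+mCherry+ cells, against 10.4, 31.1 and 30.3 FPKM in GFP-mCherry+ cells and 11.0, 14.2 and 23.6 FPKM in GFP-mCherry- cells (2.42 ± 0.40 against GFP-mCherry+). MYH11, the smooth muscle myosin heavy chain, was at 41.8 and 25.5 FPKM against 3.27, 4.32 and 14.5 FPKM, and 1.74, 0.416 and 2.01 FPKM in GFP-mCherry- cells (2.26 ± 0.47 against GFP-mCherry+). Both stood above both other populations. CNN1, calponin, went the other way at 105 and 53 FPKM against 193, 179 and 444 FPKM (-1.72 ± 0.40), as did MYOCD, the coactivator of cardiac and smooth muscle genes, at 9.32 and 6.83 FPKM against 46.4, 37.9 and 30.4 FPKM (-2.11 ± 0.38). ACTA2, smooth muscle actin, overlapped, at 625 and 527 FPKM against 490, 707 and 1268 FPKM (-0.41 ± 0.54). Without library 13 there were 2 higher (MYLK and MYH11) and 1 lower (MYOCD), and CNN1 had an adjusted p of 0.131. Without library 14 there were 5 lower.

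Stromal genes were higher in GFP+mCherry+ cells. Of 39 fibroblast genes 16 were higher and 1 lower (median 0.90), of 35 collagen genes 15 and 3 (median 0.73), of 44 matrix proteases and inhibitors 23 and 3 (median 0.89), and of 39 integrins and laminins 17 and 3 (median 0.58). PDPN, podoplanin, a glycoprotein of mesothelium and of the sinus horn in mouse, was at 253 and 215 FPKM in GFP+mCherry+ cells, against 25.6, 50.0 and 27.2 FPKM in GFP-mCherry+ cells (2.80 ± 0.49, adjusted p 0.00107). It exceeded GFP-mCherry- cells as well (89.3, 140 and 94.2 FPKM). LAMB1, a laminin chain of the basement membrane, was at 521 and 751 FPKM against 84.7, 209 and 135 FPKM (2.22, adjusted p 0.000507). The integrin and laminin list also holds ITGAL, the leukocyte integrin and so no marker of stroma. ITGAL was at 10.3 and 10.8 FPKM against 0.841, 2.28 and 1.21 FPKM (2.28 ± 0.29). COL2A1, a collagen of cartilage and of cardiac cushions, was the other way, at 22.0 and 17.4 FPKM against 92.3, 73.4 and 73.8 FPKM (-1.96 ± 0.33). These 4 named calls held without any 1 library. Without library 13 the higher counts were 7, 2, 10 and 10, and without library 11 the collagens had 10 higher and 1 lower. Lower members numbered 1 among collagens and 1 among proteases without library 13, and 5 among collagens without library 14. Within the GFP-mCherry+ group library 14 held the most stromal RNA, with 8784 FPKM over the fibroblast list against 4039 and 4557 FPKM in libraries 11 and 17, and GFP+mCherry+ libraries held 13731 and 13864 FPKM.

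Epicardial and mesothelial genes were higher in 8 of 21 and lower in none (median 1.42), a count of 8 or 9 without any 1 of the 5 libraries. BNC1, a zinc finger factor of mesothelium (ENSG00000169594, chromosome 15, 83924655 to 83953466 on hg19), was at 81.4 and 100 FPKM in GFP+mCherry+ cells, against 9.60, 19.3 and 11.4 FPKM in GFP-mCherry+ cells (2.72 ± 0.32, adjusted p 0.000113). EFEMP1, an extracellular matrix glycoprotein, was at 154 and 149 FPKM against 13.9, 33.1 and 15.9 FPKM (2.90 ± 0.48). UPK3B, a mesothelial surface protein (2.45), and BNC2 (2.40) were higher too. WT1, the defining epicardial factor, was at 15.5 and 7.02 FPKM against 4.88, 7.02 and 8.01 FPKM, which overlapped (0.61 ± 0.50, adjusted p 0.384), and TCF21, a factor of epicardium-derived fibroblasts, stayed at or under 1.55 FPKM in both mCherry+ populations. GFP-mCherry- cells held more of both, with WT1 at 41.2, 21.7 and 40.6 FPKM.

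Epithelial genes were higher in 12 of 40 and lower in 1 (median 0.55). CDH1, E-cadherin (ENSG00000039068, chromosome 16, 68771128 to 68869451 on hg19), was at 103 and 160 FPKM in GFP+mCherry+ cells, against 15.4, 26.9 and 22.4 FPKM in GFP-mCherry+ cells (2.55 ± 0.32, adjusted p 0.000181). CLDN15, a claudin, was higher by 3.37 ± 0.44, while CLDN6, an embryonic claudin, was at 42.4 and 38.3 FPKM against 133, 95.9 and 163 FPKM (-1.64 ± 0.34). SLC34A2, a phosphate transporter of secretory epithelia, was at 220 and 148 FPKM against 7.75, 22.0 and 5.63 FPKM (4.05 ± 0.69, adjusted p 0.000876), and C3, the complement component, was at 554 and 563 FPKM against 21.4, 60.1 and 19.5 FPKM (4.20 ± 0.87). In both genes GFP+mCherry+ cells stood well above GFP-mCherry- cells, which held 62.0, 80.9 and 42.6 FPKM of SLC34A2. For the whole epithelial list the order was different, with sums of 1664 and 2011 FPKM in GFP+mCherry+ cells, 1251, 1150 and 1373 FPKM in GFP-mCherry+ cells and 2915, 3431 and 4637 FPKM in GFP-mCherry- cells. EPCAM, a defining epithelial marker, was at 51.4 and 105 FPKM in GFP+mCherry+ cells, against 25.1, 75.8 and 47.7 FPKM in GFP-mCherry+ cells, which overlapped. The list had 4 higher without library 13 and 7 without library 11, and the genes named as higher or lower here kept their calls without any 1 library.

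KDR, the endothelial growth factor receptor, was at 221 and 200 FPKM in GFP+mCherry+ cells, against 13.5, 42.7 and 18.4 FPKM in GFP-mCherry+ cells (3.20 ± 0.67, adjusted p 0.00289), and GFP-mCherry- cells held 78.9, 128 and 62.4 FPKM. ERG, a transcription factor of endothelium, was at 3.84 and 3.61 FPKM in GFP+mCherry+ cells, against 0.520, 1.13 and 1.36 FPKM in GFP-mCherry+ cells (1.26 ± 0.29, adjusted p 0.00509), and GFP-mCherry- cells held 4.33, 3.65 and 4.66 FPKM. FLT1, another growth factor receptor, was at 16.4 and 36.4 FPKM against 3.59, 17.9 and 6.62 FPKM, values that overlap (1.55 ± 0.55, adjusted p 0.0453), and it was not called without library 11 (0.167), 13 (0.400) or 17 (0.106), after quantile normalization (0.0788) or after median-of-ratios scaling (0.0668). The junction and receptor markers CDH5 and TIE1 were not called. CDH5 was at 1.23 and 0.757 FPKM against 0.452, 1.46 and 0.664 FPKM, TIE1 at 2.25 and 0.821 FPKM against 1.19, 1.35 and 1.89 FPKM, and VWF was listed at 0 in library 13 and under 1 FPKM in all 5 libraries. Of 19 endothelial and endocardial genes 5 were higher and 1 lower, with 2 higher without any 1 of libraries 11, 13 or 17 and 3 higher without library 10, and none lower without any 1 of libraries 10, 11, 13 or 14.

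HOX genes were higher in 8 of 13 and lower in none (median 1.36), with HOXB5 at 6.62 and 12.2 FPKM in GFP+mCherry+ cells, against 0.921, 1.92 and 1.22 FPKM in GFP-mCherry+ cells (2.11 ± 0.32). HOXB6 (2.37 ± 0.42) and HOXB7 (2.09) rose beside it, and all 3 held without any 1 library. The list summed to 104 and 203 FPKM in GFP+mCherry+ cells, against 30.0, 65.3 and 34.0 FPKM in GFP-mCherry+ cells, and to 125, 153 and 141 FPKM in GFP-mCherry- cells, and had 3 members higher without library 13. Of 24 genes of retinoic acid synthesis, breakdown and reception, 1 was higher and 1 lower. Of 42 Wnt genes 10 were higher and 8 lower (6 and 2 without library 13), with RSPO2, an agonist, higher (1.77, adjusted p 0.00113) and the ligand WNT5B lower, at 4.95 and 4.78 FPKM against 19.1, 11.1 and 15.1 FPKM (-1.43 ± 0.23).

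Macrophage and leukocyte genes were higher in GFP+mCherry+ cells than in either other population of day 40. Of 27 such genes 22 were higher and none lower (81.5%, median 1.84), and their summed level was 965 and 408 FPKM, against 124, 150 and 197 FPKM in GFP-mCherry+ cells and 105, 109 and 99.8 FPKM in GFP-mCherry- cells. MS4A7, a membrane protein of monocytes and macrophages (ENSG00000166927, chromosome 11, 60145955 to 60163424 on hg19), was at 42.9 and 17.6 FPKM, against 2.99, 3.36 and 3.33 FPKM in GFP-mCherry+ cells (2.76 ± 0.37, adjusted p 0.000208). SPI1, the factor that specifies myeloid cells, was at 9.67 and 4.92 FPKM against 1.56, 0.423 and 1.69 FPKM (1.89 ± 0.35). CD4, which macrophages share with helper T cells, was at 21.0 and 15.8 FPKM against 3.21, 2.71 and 3.39 FPKM (2.23 ± 0.27), and the integrin ITGAX rose by 2.09 ± 0.28. Among defining markers CSF1R was at 44.4 and 19.6 FPKM against 7.15, 6.49 and 8.04 FPKM, CD68 at 83.9 and 33.6 FPKM against 10.2, 13.1 and 19.6 FPKM, and PTPRC at 8.92 and 8.43 FPKM against 0.918, 4.69 and 2.03 FPKM. CD14 was at 2.92 and 0.843 FPKM against 1.10, 1.33 and 1.05 FPKM and overlapped.

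Library 10 held more of the list than library 13. Without library 10 the list had 11 of 27 higher (median 1.21), and without library 11 it had 15, while 22 were higher without library 13 (median 2.43). CSF1R (adjusted p 0.0604), CD68 (0.130) and C1QA (0.0993) were not called without library 10, and MS4A7, SPI1, CD4 and ITGAX kept their calls without any 1 library. Of 6 defining macrophage markers 5 were called, with sums of 176 and 76.2 FPKM in GFP+mCherry+ cells, against 25.8, 28.8 and 36.4 FPKM in GFP-mCherry+ cells and 14.3, 27.3 and 19.1 FPKM in GFP-mCherry- cells. Whether these transcripts came from another cell type in the sorted fraction was not tested.

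**Figure D4:**
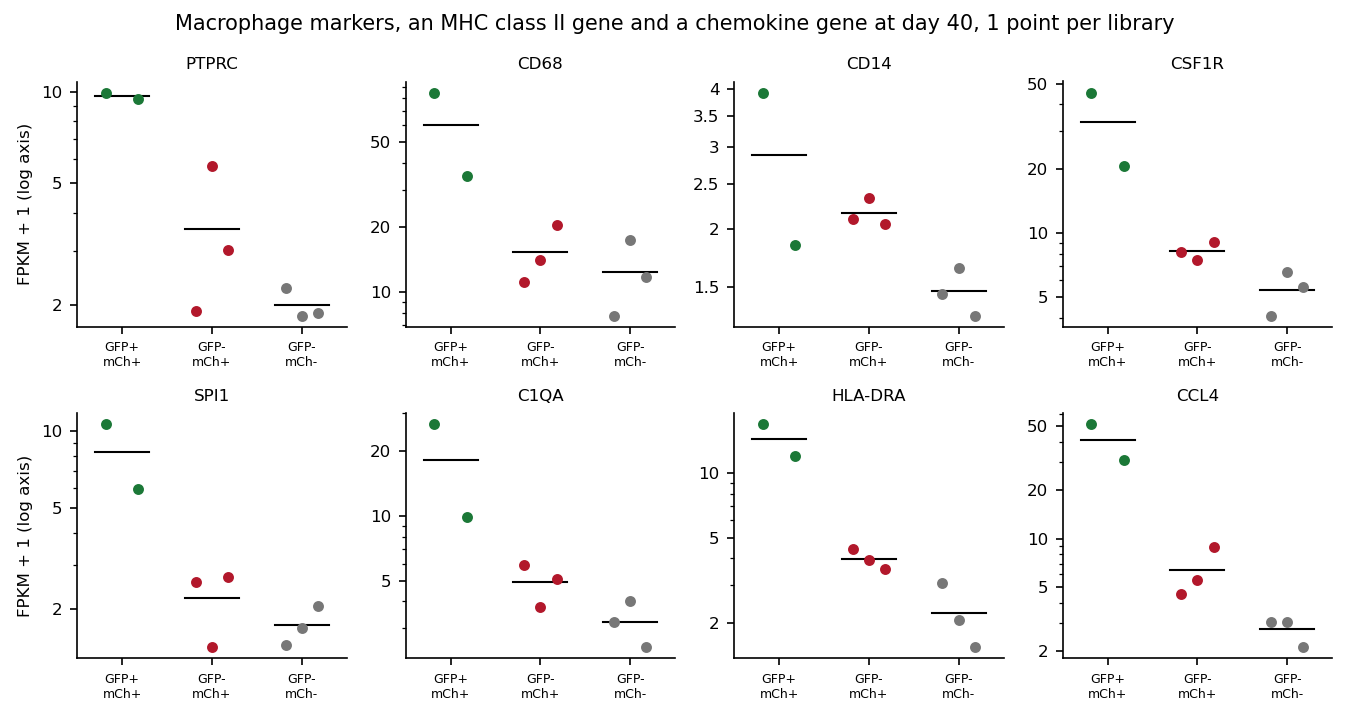
Levels of 6 macrophage markers, the MHC class II gene HLA-DRA and the chemokine gene CCL4 as FPKM + 1 on a log axis at day 40, with 1 point for each library of GFP+mCherry+ (green), GFP-mCherry+ (red) and GFP-mCherry- (grey) cells (mCh stands for mCherry) and black lines for the mean of each population. Both GFP+mCherry+ points lie above all others for every gene except CD14, and library 10 (left point) lies above library 13 in each panel.

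Antigen presentation and inflammatory genes moved with them. Of 13 MHC class II genes 11 were higher and none lower (84.6%, median 1.24). HLA-DRA, the alpha chain of the DR molecule, was at 15.8 and 11.0 FPKM in GFP+mCherry+ cells, against 3.42, 2.94 and 2.56 FPKM in GFP-mCherry+ cells (1.84 ± 0.27, adjusted p 0.000357). HLA-DMB, which loads peptide, was at 64.3 and 29.6 FPKM against 5.52, 6.45 and 5.48 FPKM (2.72 ± 0.48), and CTSS, the protease that frees the groove, was at 37.5 and 20.2 FPKM against 3.59, 2.97 and 7.02 FPKM (2.44 ± 0.40). HLA-DRB and HLA-DQ genes resemble each other, so reads could be split between them. Of 20 chemokines and receptors 11 were higher and none lower (median 0.98), with CCL4, a macrophage chemokine, at 50.6 and 29.8 FPKM against 3.54, 4.58 and 7.94 FPKM (2.71 ± 0.35). CCL4 has near-identical copies whose reads may be shared. Without library 10 MHC class II had 7 higher, and without library 13 the chemokines had 6 higher. The named genes kept their calls without any 1 library.

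Of 26 complement genes 15 were higher and 3 lower (median 1.47). SERPING1, the C1 inhibitor (ENSG00000149131, chromosome 11, 57364860 to 57382326 on hg19), was at 183 and 167 FPKM in GFP+mCherry+ cells, against 19.3, 46.3 and 24.5 FPKM in GFP-mCherry+ cells (2.60 ± 0.37, adjusted p 0.00028), near the 158, 139 and 124 FPKM of GFP-mCherry- cells. Of 46 interferon-stimulated genes 17 were higher and 1 lower (median 0.66), among them HLA-E, at 61.9 and 60.2 FPKM against 17.6, 21.1 and 12.7 FPKM (1.80 ± 0.23). That list had 7 higher without library 13 and 12 higher and none lower after leaving out library 11. Immediate early genes were higher in 16 of 31 and lower in none (median 1.13). NR4A2, an orphan receptor induced by cyclic AMP, was at 29.5 and 15.6 FPKM against 3.60, 4.03 and 1.76 FPKM (2.49 ± 0.34, adjusted p 0.000254), and above GFP-mCherry- cells (5.01, 3.62 and 1.99 FPKM). FOSB, an AP-1 subunit, was at 156 and 306 FPKM against 46.1, 76.2 and 63.8 FPKM (1.83 ± 0.31), but GFP-mCherry- cells held 142, 143 and 165 FPKM. Immediate early genes respond to cell dissociation and sorting as well as to signals in culture, and their part here was not tested. The list had 6 higher without library 13, 9 without library 10 and 10 without library 17.

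Iron handling genes were higher in 5 of 20 and lower in 2 (median 0.20). SLC40A1, the iron exporter ferroportin, was at 219 and 275 FPKM in GFP+mCherry+ cells, against 25.2, 53.7 and 33.6 FPKM in GFP-mCherry+ cells (2.74 ± 0.61). HMOX1, the haem oxygenase that frees iron, was at 18.8 and 13.3 FPKM against 2.74, 3.22 and 2.67 FPKM (2.12 ± 0.28, adjusted p 0.000193), above the 3.51, 6.56 and 6.04 FPKM of GFP-mCherry- cells. HAMP, hepcidin, which removes ferroportin from the membrane, was at 10.0 and 3.41 FPKM against 104, 18.8 and 19.7 FPKM (-2.33 ± 0.82, adjusted p 0.0448). The exporter was higher and its inhibitor lower in both GFP+mCherry+ libraries. SLC40A1 was not called without library 13 (adjusted p 0.0587), nor HAMP without library 13 (0.356) or 11 (0.173). The list had 3 higher and 1 lower without library 13.

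Genes tied to the handling and cardiac toxicity of anthracyclines, chemotherapy drugs that injure myocytes, were higher in 5 of 31 and lower in 6 (median -0.07). ERBB2, the neuregulin co-receptor that protects myocytes, was at 42.5 and 28.0 FPKM in GFP+mCherry+ cells, against 87.2 to 160 FPKM in GFP-mCherry+ cells (-1.67 ± 0.28, adjusted p 0.000866). AKR1B1, an aldo-keto reductase, was lower (-1.59 ± 0.21) and AKR1C1, a relative with near-identical paralogs, higher (2.32 ± 0.46). TOP2B, the drug target in myocytes, was at 52.2 and 65.0 FPKM against 76.6, 82.6 and 79.5 FPKM and did not pass (-0.44 ± 0.17, adjusted p 0.0682). The list had 3 higher and 2 lower without library 13, and 3 higher without library 17.

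Of 49 cell cycle genes 5 were higher and 3 lower (median -0.49). CDKN1C, an imprinted cell cycle inhibitor, was at 192 and 178 FPKM in GFP+mCherry+ cells, against 18.9, 55.1 and 17.9 FPKM in GFP-mCherry+ cells (2.75 ± 0.50, adjusted p 0.00128). TYMS, which makes thymidylate, was lower (-1.86, adjusted p 0.00676). TOP2A, a marker of dividing cells, overlapped at 28.0 and 24.3 FPKM against 30.9, 34.3 and 24.9 FPKM. The list had 2 higher and none lower without library 13, when TYMS was not called (adjusted p 0.107), and 5 lower without library 10.

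The 3 populations of day 40 ordered the gene groups differently. The comparison of GFP+mCherry+ with GFP-mCherry- cells shares libraries 10 and 13 with the main one, so its values are given side by side only. It called 1634 genes (11.8%), 1027 higher (7.40%) and 607 lower (4.38%). The filter used only the mCherry+ libraries of day 40. Genes that reached it only in GFP-mCherry- cells were not tested and could not be called lower. With the filter of 1 FPKM taken over all libraries, 1043 genes were called higher and 705 lower. Z-disc genes, 23 of 28 lower against GFP-mCherry+ cells, were higher in 18 of 28 and lower in none against GFP-mCherry- cells (median 1.99). Fibroblast genes, 16 of 39 higher against GFP-mCherry+ cells, were lower in 9 and higher in none against GFP-mCherry- cells (median -0.39), and epithelial genes were lower in 14 of 40 (median -0.89). Macrophage genes were higher in 22 of 27 against GFP-mCherry+ cells and in 23 of 27 against GFP-mCherry- cells (median 2.36). Oxidative phosphorylation genes, 67 of 77 lower against GFP-mCherry+ cells, had 1 lower and none higher against GFP-mCherry- cells (median 0.08).

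At day 25, where GFP+mCherry+ and GFP-mCherry+ cells had 3 libraries each and shared none with day 40, 2931 genes (21.1%) were called, 1714 higher (12.4%) and 1217 lower (8.77%). The differences of the days correlated at r = 0.80 across the 13873 genes, which are not independent replicates. In all, 2014 genes were called in the same direction on both days, 53.6% of the day 40 calls and 68.7% of the day 25 calls, and 1 in opposite directions. Z-disc genes were lower in 21 of 28 at day 25 (median -1.68), and HOX genes higher in 9 of 13. Of the 10 transcription factors of the node 5 were higher and 2 lower at day 25 (median 0.89), against 2 and 1 at day 40 (median 0.06). The BMP list had 4 higher and 1 lower of 25 at day 25 (median 0.40), and the macrophage list 2 of 27 higher (median 0.25), against 9 and 3, and 22 and 0, at day 40. MS4A7 differed by 0.36 at day 25 (adjusted p 0.469) and by 2.76 at day 40, and HLA-DRA by -0.16 (adjusted p 0.676) and 1.84. The test of the change itself called 1 gene (0.00721%), SASH3, an adaptor of lymphocytes, and 907 genes had an unadjusted p under 0.05. No gene was called with a pseudocount of 0.1, with a filter of 5 FPKM, with only the compared groups in the fit, under the replicate block or without library 11, so the list counts of the days are set side by side without a call of a difference.

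**Figure D5:**
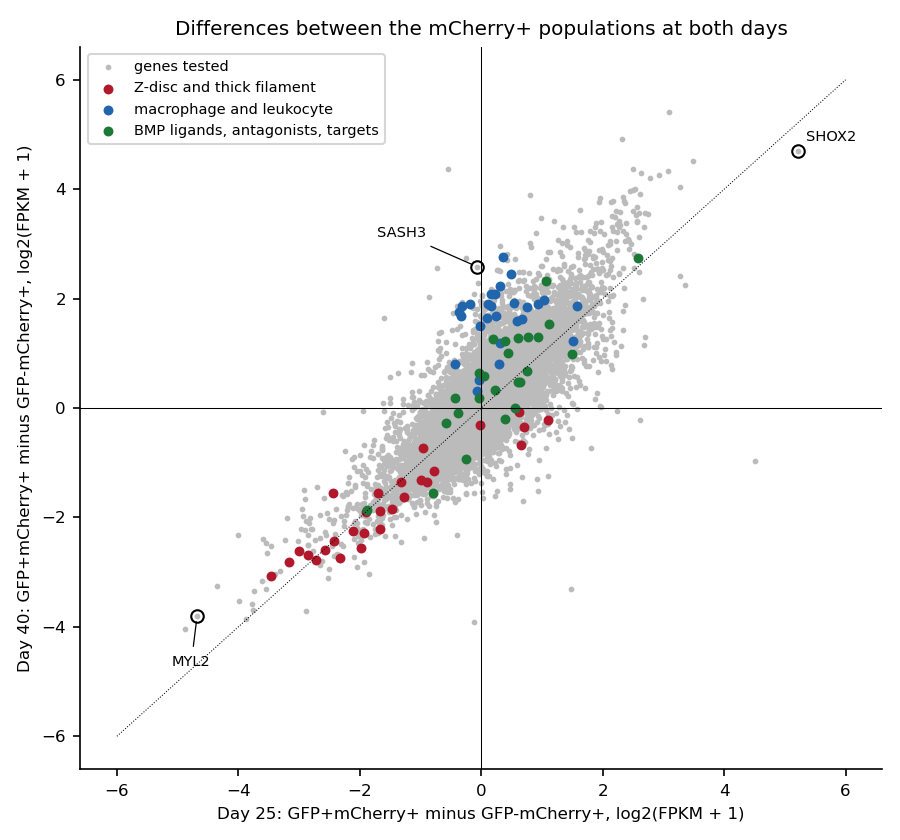
Differences between GFP+mCherry+ and GFP-mCherry+ cells on log2(FPKM + 1) for the 13873 tested genes (grey), at day 25 on the horizontal and at day 40 on the vertical axis, with Z-disc (red), macrophage (blue) and BMP (green) list members and rings around SHOX2, MYL2 and SASH3. Z-disc genes lie around the dotted line of equal differences (medians -1.68 at day 25 and -1.86 at day 40), and most macrophage genes lie above it (medians 0.25 and 1.84).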

How the data were processed

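RNA-seq libraries (TruSeq, per the labels' protocols) of sorted cells were deposited by the authors as 1 table of FPKM values per gene, for 17 libraries. No unit stands in the header. That the values are FPKM rests on Cufflinks being named in the submitters' processing notes and on the values, which were not whole and summed to 565805 to 659878 per library. Per the submitters' processing notes, bcl2fastq 2.19, cutadapt, STAR 2.5.2b, Cufflinks 2.1.1 and hg19 were used, in roles those notes as used here do not give. Counts were not used, so read depth is unknown and no count test was run. Whether counting used strand is not given in the sources used here, so overlapping and antisense genes may share reads.

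Of the 20368 rows, 71 repeated an identifier. Where rows shared a gene name the one with the highest mean was kept, which left 20218 genes. The filter of 1 FPKM in 2 of the 5 libraries left 13873, which were tested with limma 3.58.1 in R 4.3.3 on log2(FPKM + 1), over all 17 libraries with 6 group means, 11 residual degrees of freedom, a variance trend and Benjamini-Hochberg adjustment over all tested genes. Genes are called at an adjusted p under 0.05. Errors after ± are standard errors of the log2 difference. On simulated data for the day 40 comparison, 35% of 100 genes changed by 1 log2 unit and 90% of 100 changed by 2 were called, with 12 false calls. The simulated noise was independent between genes, and far fewer genes were changed than the 3757 called in the data. These rates therefore need not hold for the data.

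The members and the gene lists were chosen with earlier results of these data known. Named genes were SHOX2 and MYH6, all tested members of the core lists, up to 5 called members with the smallest adjusted p and 3 uncalled members with the highest mean in the other lists, 15 genes in each direction with the largest differences, the 8 genes that differed most between libraries 10 and 13, and the 5 or 10 genes leading the change between days. Genes shown as cell type markers were a separate hand-written set. The alternatives were other pseudocounts, filters, scalings, fits and left-out libraries. Some results that the rule would name are not reported here.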

Additional observations from a re-analysis of the deposited data

Results flagged for a closer look

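SASH3, which encodes a signalling adaptor of lymphocytes (ENSG00000122122, chromosome X, 128913955 to 128929177 on hg19), differed between the days in how GFP+mCherry+ cells compared with GFP-mCherry+ cells. At day 40 it was at 10.4 and 12.2 FPKM in GFP+mCherry+ libraries, against 0.79, 1.02 and 1.36 FPKM in GFP-mCherry+ libraries, a log2 difference of 2.58 ± 0.25 with an adjusted p of 4.33e-05. At day 25 the difference was -0.07. The change between the days was 2.65 on the log2 scale (limma, adjusted p 0.0117), the single call among the 13873 genes tested for it. That call was lost with a pseudocount of 0.1, with a filter of 5 FPKM, with only the compared groups in the fit, under the replicate block and without library 11, each of which called 0 genes for the change.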

How the results depend on the processing

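At day 40, 3757 genes were called (2362 higher and 1395 lower). With only the compared groups in the fit 1624 were called (1124 and 500), and without libraries 13 and 14 there were 1894 (1447 and 447). Leaving out 1 library at a time gave 1236 to 4214 calls (974 to 2632 higher and 262 to 1582 lower), the lowest without library 13. At day 25, library quality weights gave 7444 calls (4190 and 3254) against 2931. The change between days, with 1 call, had 0 with a pseudocount of 0.1, with a filter of 5 FPKM, with only the compared groups and under the replicate block, 2 with the filter over all libraries, 11 with quality weights, 14 with no variance trend, 38 without libraries 13 and 14, 46 with no filter, and 0 to 41 without 1 library. Against GFP-mCherry- cells, with 1634 calls (1027 and 607), there were 624 (463 and 161) with only the compared groups and 620 (476 and 144) without libraries 13 and 14. Without 1 library there were 515 to 1886 (412 to 1168 and 103 to 765). Lower calls there were 396 with a filter of 5 FPKM, 990 after quantile normalization and 369 with quality weights. The cause was not tested.

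Of the named genes, none reversed its sign while called. Leaving out library 13 ended 153 of their calls, and the filter of 5 FPKM ended none among the genes it still tested. The replicate block used sets of consecutive library numbers, which the labels do not say pair the samples. It gave 3801 calls at day 40 (2360 higher and 1441 lower). Read depth is unknown, so no floor can be set for low genes. The 5 libraries hold 14 values listed at 0 where each other library of the group had at least 5 FPKM.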

Other observations

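Genes of neurites and of pigment cells were also higher in GFP+mCherry+ cells at day 40. Of 20 neurite genes 9 were higher and none lower (median 0.88), with 5 higher without library 13, and of 11 melanocyte genes 6 were higher and 1 lower (median 1.18), with 4 higher and none lower without library 13. STMN2, a tubulin-binding protein of growing axons, was at 123 and 227 FPKM in GFP+mCherry+ cells, against 5.42, 32.5 and 5.48 FPKM in GFP-mCherry+ cells and 23.2, 72.4 and 13.8 FPKM in GFP-mCherry- cells (3.91 ± 0.76 against GFP-mCherry+, adjusted p 0.00191). PHOX2A, a factor of autonomic neurons, was at 1.78 and 2.36 FPKM against 0.351, 0.311 and 0.419 FPKM in GFP-mCherry+ cells (1.17 ± 0.20). GPNMB, a glycoprotein of melanocytes and macrophages, was at 94.9 and 105 FPKM against 8.87 to 16.2 FPKM (2.82 ± 0.37). TYRP1, a melanosome enzyme, was at 58.9 and 49.9 FPKM against 2.69, 11.3 and 5.56 FPKM (3.05 ± 0.66). MITF, the master factor of melanocytes, and DCT, another melanosome enzyme, were not called. MITF was at 19 and 13.2 FPKM in GFP+mCherry+ cells, against 28.6, 24.7 and 18.8 FPKM in GFP-mCherry+ cells (-0.55 ± 0.26, adjusted p 0.127). DCT was at 0.313 and 2.55 FPKM against 0.317, 1.27 and 0.295 FPKM (0.46 ± 0.43, adjusted p 0.452). PAX3, a neural crest factor, was lower, at 0.348 and 0 FPKM against 2.17, 2.12 and 1.40 FPKM, a call that depended on library 13. PHOX2A passed the filter of 1 FPKM only through the GFP+mCherry+ libraries, and PAX3 only through the GFP-mCherry+ libraries. No support is drawn from the calls of PHOX2A and PAX3.

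The GFP+mCherry+ libraries differed from each other most in a few genes listed at or near 0 in 1 of them. TGFBI was listed at 0 in library 10 and stood at 538 FPKM in library 13, and USP47 was listed at 0 in library 10 and stood at 65.5 FPKM in library 13. TXNRD2 stood at 18.4 FPKM in library 10 and 0.39 FPKM in library 13, and XIAP at 14.0 FPKM in library 10, listed at 0 in library 13. No direction is read from these genes.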
